A study of Rattus norvegicus with 11 samples.

Results

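The numbered Gpr genes are the genes whose symbol is Gpr followed by digits, a naming series given to G protein-coupled receptors found by sequence before their ligand was known. The deposited table of rat dorsal root ganglia held 66 such symbols among its 16811 genes, and 52 of them reached 10 or more in 3 or more of the 11 libraries and are the genes described here. Of the 52, 46 carry the current symbol and 6 an older one, among them Gpr116 (now Adgrf5), Gpr128 (Adgrg7), Gpr56 (Adgrg1), Gpr64 (Adgrg2) and Gpr81 (Hcar1). In the grouping used here, 47 are counted as receptors. The other 5 (Gpr107, Gpr137, Gpr155, Gpr157 and Gpr180) are set apart as other membrane proteins with the same kind of symbol, which does not show that none is a receptor.

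RNA came from dorsal root ganglia, where sensory neurons of trunk and limbs have their cell bodies, of Sprague-Dawley rats. The groups were ligated rats treated with UNC0638 (SNL plus UNC0638, n = 3), rats with spinal nerve ligation alone (SNL, n = 4), a nerve injury that models neuropathic pain, and sham-operated rats (Sham, n = 4). UNC0638 inhibits G9a and GLP (encoded by Ehmt2 and Ehmt1), enzymes that put methyl groups on histone H3 and so silence genes; it acts on the enzymes and not on their mRNA. The study asked, by its title, about the part of G9a in the silencing of potassium channel genes after nerve injury. Per the labels, ligated ganglia were from the left side and Sham ganglia from the right side, so that side and ligation cannot be told apart. No group received UNC0638 without ligation, so that its comparison is within ligated rats only. RNA was extracted with Trizol or RNeasy, and the sources used here give neither which library had which nor the dose, the times and the age of the rats. The labels do not say that replicates were separate animals, so that p-values measure the spread between these libraries.

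G protein-coupled receptors are membrane proteins that, once a ligand binds, activate heterotrimeric G proteins, whose alpha subunits raise or lower cyclic AMP or calcium. Regulators of G protein signalling switch the alpha subunit off again, and receptor kinases and arrestins silence the receptor. In sensory ganglia such receptors set the excitability of neurons, and in macrophages, lymphocytes and endothelium they respond to lipids, acid, metabolites and chemoattractants. Many numbered receptors have since been paired with a ligand, and others are still orphans.

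Judged from their steps, the deposited values are gene counts scaled with 1 factor per library, and are called scaled counts here. Totals were 9450045 to 11347920 per library, 1 read was worth 0.429 to 1.56 scaled counts, and the reads behind a library were estimated at 6127914 to 24367629. Of 12085 tested genes, ligation alone changed 5823 (2995 higher, 2828 lower), and SNL plus UNC0638 differed from SNL in 3356 (1630 higher, 1726 lower) and from Sham in 6220 (3083 higher, 3137 lower). Scaling each library to the same total instead shifted the median log2 fold change of all genes by 0.10, 0.09 and 0.19 in these comparisons and gave 3471 higher and 2199 lower, 2234 higher and 1126 lower, and 3969 higher and 1943 lower. Summed levels of 14 sensory neuron markers were 145715 to 230437 in SNL plus UNC0638, 158779 to 226521 in SNL and 280765 to 396687 in Sham libraries. The summed levels of 9 injury genes (Atf3, Gal, Npy and others) were 4179 to 14426 in SNL plus UNC0638, 26742 to 40436 in SNL and 4156 to 5199 in Sham libraries. SNL plus UNC0638 replicate 1 stood apart: its injury gene sum of 4179 lay within the Sham range, and its skeletal muscle marker sum was 77295, against at most 547 in any other library. The replicates numbered 3 of Sham and SNL departed from their groups in a similar way (r = 0.431 across genes, which are not independent replicates). SNL replicate 3 and SNL plus UNC0638 replicate 1 did so to nearly the same degree (r = 0.429). Counts of called Gpr genes are also given without SNL plus UNC0638 replicate 1, for both comparisons of that group. Counts without both replicates 3 are given for SNL plus UNC0638 against SNL only. Without both replicates 3, 54.8% of all tested genes were called in SNL against Sham. The shares were 44.2% in SNL plus UNC0638 against SNL and 60.6% in SNL plus UNC0638 against Sham.

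Ligation moved numbered Gpr genes in both directions. In SNL against Sham, 28 of the 52 genes (53.8%) were called by limma at a Benjamini-Hochberg adjusted p under 0.05, beside 48.2% of all tested genes. Of these, 14 rose (26.9%, beside 24.8% of all genes) and 14 fell (26.9%, beside 23.4%), so that the share called is near that of all genes. The genes that fell most on the log2 scale were the orphan receptor genes Gpr22, Gpr149, Gpr45 and Gpr162. Those that rose include the receptor genes Gpr34, Gpr183, Gpr65 and Gpr171, known from blood and immune cells, and the orphan gene Gpr101. Gpr45 would not have passed the filter on low values without the Sham libraries, and Gpr101 not without the SNL libraries. Their differences between SNL and Sham were thus partly built in. The median log2 fold change of the 52 genes was 0.06, and -0.0033 over all tested genes. Libraries of both groups did not overlap for 27 genes (51.9%, beside 43.3% of all tested genes), 12 of them higher (beside 22.1%) and 15 lower (beside 21.2%). The number that rose fell to 9 without SNL replicate 1, where 2567 of all tested genes rose (2995 with all libraries).

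With UNC0638 after ligation, calls among numbered Gpr genes lay mostly on the higher side. In SNL plus UNC0638 against SNL, 19 of the 52 genes (36.5%) were called, beside 27.8% of all tested genes; 14 rose (26.9%, beside 13.5% of all genes) and 5 fell (9.62%, beside 14.3%). The genes that rose include Gpr17, Gpr18, Gpr4, Gpr35 and Gpr132, and also Gpr22, Gpr162 and Gpr149, and those that fell include Gpr101, Gpr34, Gpr85 and Gpr19. The median log2 fold change was 0.49, and 0.0066 over all tested genes. Libraries did not overlap for 25 genes (48.1%, beside 37.6% of all tested genes), 19 of them higher (beside 17.7%) and 6 lower (beside 19.9%). Without SNL plus UNC0638 replicate 1, 12 rose and 2 fell, and 13 of the 19 calls remained; calls lost include those of Gpr19, Gpr34, Gpr45, Gpr101 and Gpr171, and that of Gpr84 was gained. Of all tested genes, 1225 rose and 1317 fell without SNL plus UNC0638 replicate 1 (1630 and 1726 with all libraries). The number of Gpr genes that fell was also 2 without SNL plus UNC0638 replicate 2, and 3 without SNL replicate 2 or SNL replicate 4. Of all tested genes, 1096, 1141 and 1225 fell in these fits, in this order. Without Sham replicate 3 and SNL replicate 3 together, 24 genes rose and 5 fell; of all tested genes, 2790 rose and 2556 fell in that fit (44.2% called).

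Against Sham, rats with ligation and UNC0638 had 22 of the 52 genes called (42.3%, beside 51.5% of all tested genes), 15 higher (28.8%, beside 25.5%) and 7 lower (13.5%, beside 26.0%). Gpr18, Gpr17, Gpr171, Gpr21 and Gpr4 are among the higher genes with the smallest p. The 7 lower genes are Gpr180, Gpr61, Gpr85, Gpr176, Gpr149, Gpr22 and Gpr107, none of them at a 2-fold change or more. The median log2 fold change was 0.17, and -0.011 over all tested genes. Libraries did not overlap for 23 genes (44.2%, beside 48.4% of all tested genes), 14 of them higher (beside 23.4%) and 9 lower (beside 24.9%). Scaling to the same total gave 17 higher and 3 lower (3969 and 1943 of all tested genes). Leaving out Sham replicate 1 or replicate 2 or 3 of the UNC0638 group gave 3 lower. Leaving out Sham replicate 2 or Sham replicate 4 gave 4. Of all tested genes, 2656, 2332, 2537, 2651 and 2560 were lower in these fits, in this order (3137 with all libraries). Without SNL plus UNC0638 replicate 1, 16 were higher and 7 lower (3156 and 3155 of all tested genes). There the calls of Gpr34, Gpr64 and Gpr128 were gained and those of Gpr157 and Gpr22 lost. In all, 35 of the 52 genes were called in at least 1 comparison and 17 in none. Of all tested genes, 48.2%, 27.8% and 51.5% were called in the single comparisons, and the share called in at least 1 was not taken. The count of 35 is thus not read as a result about the Gpr genes. The comparisons share libraries (the SNL libraries stand in the first and the second, with opposite sign), so that the values of each are given side by side and no relation between them is drawn.

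**Figure D1:**
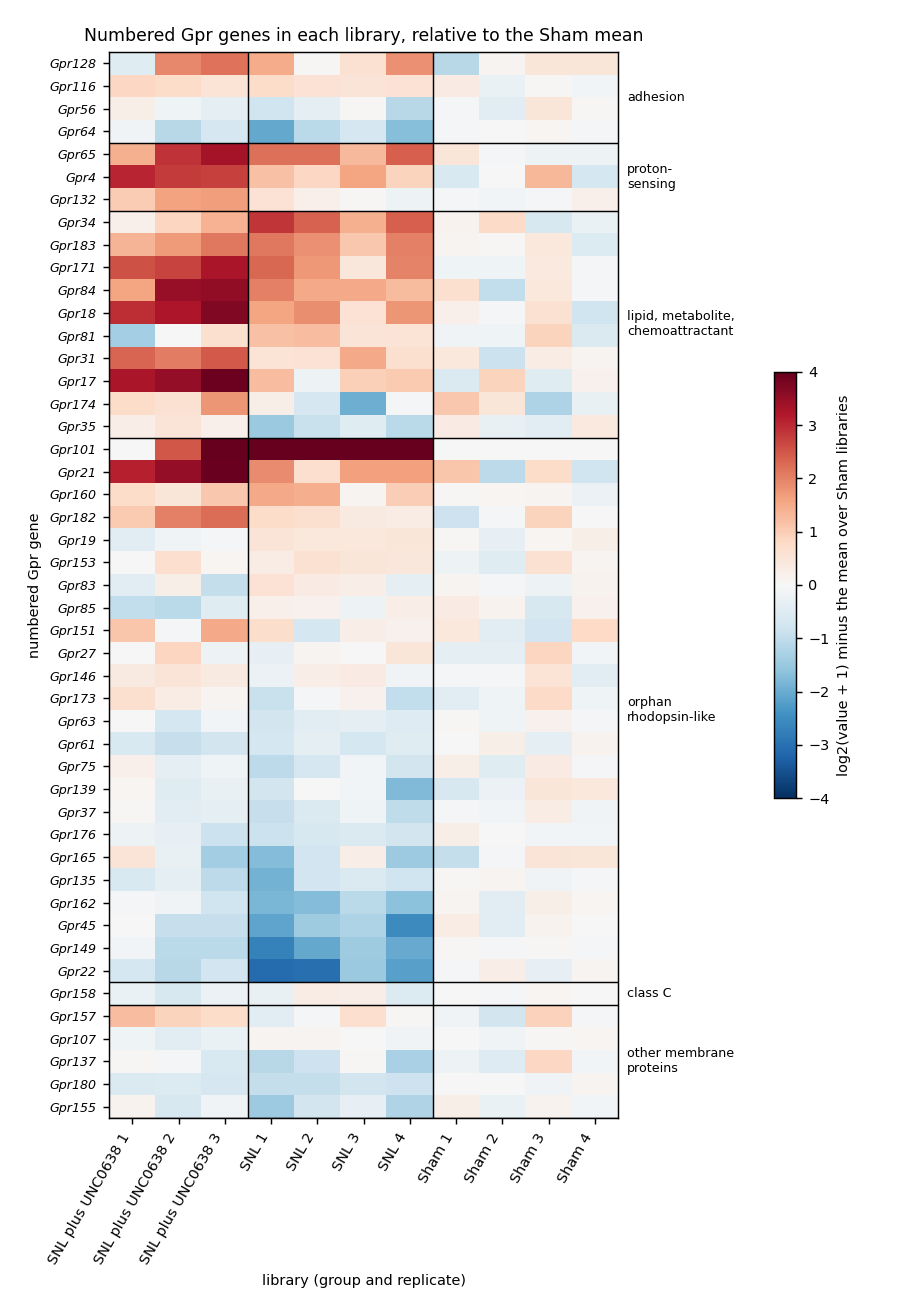
Each row is 1 of 47 numbered Gpr genes and each column a library; colour gives log2(value + 1) minus the mean over Sham libraries, with red above and blue below Sham, and the colour scale ends at 4 in either direction. Genes are grouped by role; Gpr17 and Gpr21 are red in every SNL plus UNC0638 library, Gpr34 and Gpr101 are red in all SNL libraries, and Gpr22 and Gpr149 are blue there.

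The adhesion receptors are large receptors with a long extracellular part that is cut from the membrane part. Of their 5 measured members, 2 rose and 1 fell in SNL against Sham, beside 24.8% and 23.4% of all tested genes. None was called in SNL plus UNC0638 against SNL, beside 27.8%. Against Sham, 2 were higher with UNC0638 and none lower, beside 25.5% and 26.0%. With so few members, these counts are not read as a result about the group. Gpr116, known from lung and blood vessel endothelium, had 637, 591 and 526 in SNL plus UNC0638 libraries, 597, 534, 518 and 535 in SNL libraries and 448, 299.9, 369 and 333 in Sham libraries. It was higher in every ligated library than in any Sham library, by 0.60 on the log2 scale in SNL (SE 0.13, adjusted p = 0.00269) and by 0.70 in SNL plus UNC0638 (SE 0.14, adjusted p = 0.00178). The sums of 9 endothelial markers (6 of 8 tested ones rose in SNL against Sham, and Cldn5 was at 0 in every library) moved the same way, at 3186 to 4302 in SNL plus UNC0638, 2959 to 3469 in SNL and 1538 to 2428 in Sham libraries, and their part in the result was not tested. In bulk tissue, fewer cells of a type and less RNA per cell cannot be told apart, here and in all results that follow. Gpr64, first described in the epididymis, had 1093, 551 and 743 in SNL plus UNC0638 libraries, 286, 569, 748 and 364 in SNL libraries and 1150.5, 1218, 1248 and 1157 in Sham libraries. All SNL libraries were below all Sham libraries (log2 fold change -1.38, SE 0.28, adjusted p = 0.00195); replicate 1 of the UNC0638 group was close to the Sham range and the other two were not, and neither comparison of that group was called with all libraries. Without that replicate, Gpr64 was lower in SNL plus UNC0638 than in Sham (log2 fold change -0.90, adjusted p = 0.0328) and not called against SNL (log2 fold change 0.48, adjusted p = 0.282).

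**Figure D2:**
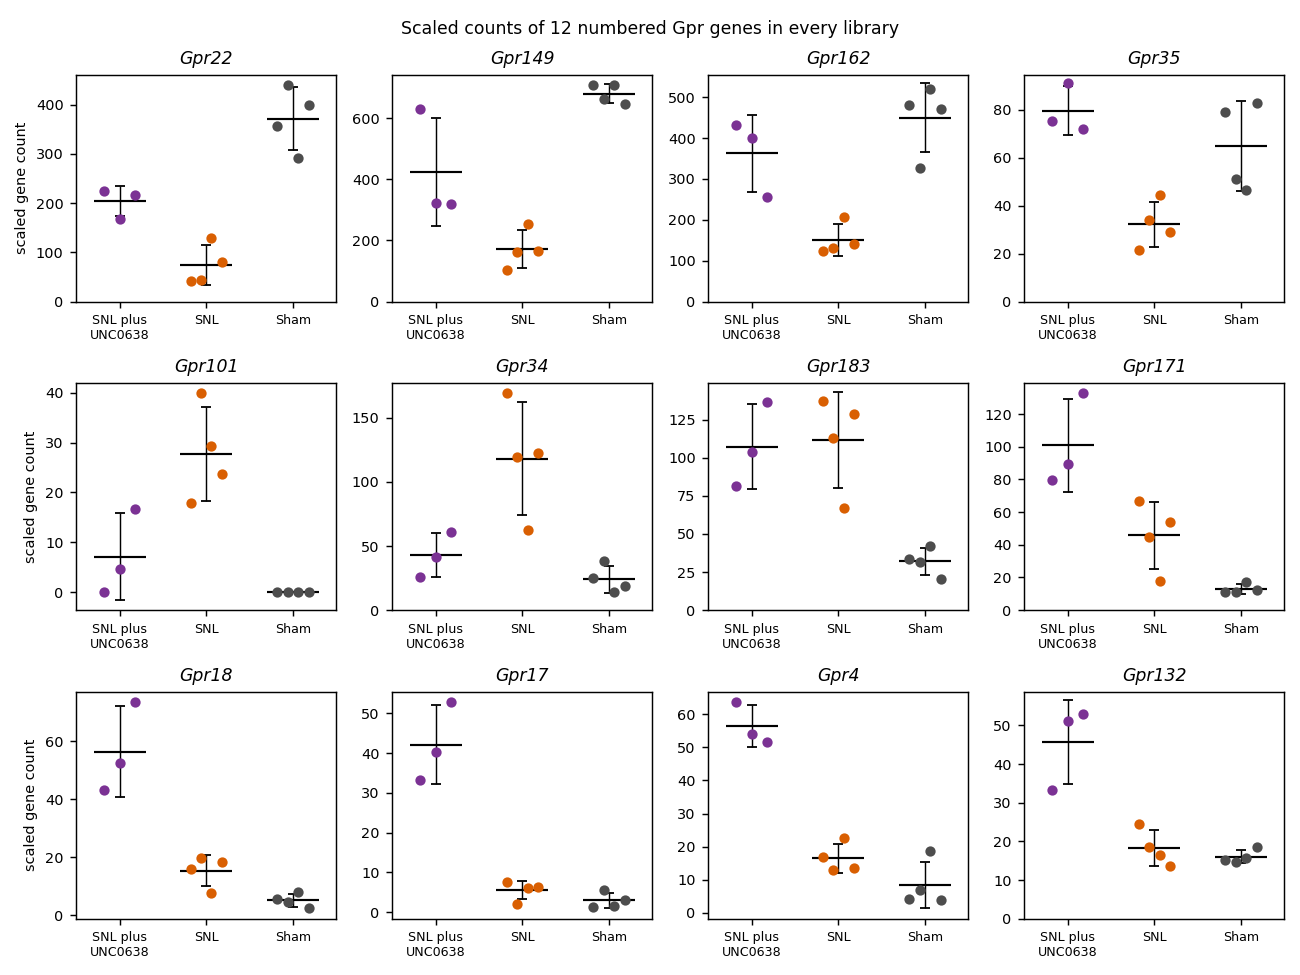
Each panel shows 1 gene, with the scaled gene count on the y axis, a point per library, a line at the group mean and bars of 1 SD (n = 3 SNL plus UNC0638, 4 SNL, 4 Sham). The Gpr22, Gpr149, Gpr162 and Gpr35 points are lowest in SNL, the Gpr101 and Gpr34 points highest in SNL, and the Gpr171, Gpr18, Gpr17, Gpr4 and Gpr132 points highest in SNL plus UNC0638.

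Receptors of the proton-sensing family respond to acid outside the cell or are related to those that do. Gpr4, found mostly in endothelium, had 63.7, 54.1 and 51.6 in SNL plus UNC0638 libraries, 16.9, 12.9, 22.5 and 13.7 in SNL libraries and 4.17, 6.82, 18.7 and 3.84 in Sham libraries. The UNC0638 libraries were above all others, and SNL and Sham libraries overlapped, with Sham replicate 3 at 18.7. Gpr4 was higher in SNL plus UNC0638 than in SNL (log2 fold change 1.74, SE 0.44, adjusted p = 0.0144) and than in Sham (log2 fold change 2.86, SE 0.44, adjusted p = 0.000449). Its call in SNL against Sham (log2 fold change 1.12, SE 0.41, adjusted p = 0.0405) was lost when any 1 of 9 libraries was left out, all except Sham replicate 3 and SNL plus UNC0638 replicate 1, with adjusted p between 0.0528 and 0.115.

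Gpr132, a receptor of lymphocytes and macrophages for oxidised fatty acids, had 33.2, 51.1 and 52.9 in SNL plus UNC0638 libraries, 24.5, 18.4, 16.5 and 13.7 in SNL libraries and 15.3, 14.8, 15.6 and 18.4 in Sham libraries. SNL and Sham libraries overlapped, and all 3 UNC0638 libraries lay above both. The gene was higher in SNL plus UNC0638 than in SNL (log2 fold change 1.28, SE 0.27, adjusted p = 0.00622) and than in Sham (log2 fold change 1.43, SE 0.27, adjusted p = 0.00130). The first held without replicate 1 (log2 fold change 1.49, adjusted p = 0.00679). SNL against Sham gave 0.15 (95% interval -0.39 to 0.70), not called. Gpr65, the acid sensor of white blood cells, had 11.7, 34.04 and 46.4 in SNL plus UNC0638 libraries, 20.7, 20.6, 10.5 and 23.7 in SNL libraries and 5.56, 3.41, 3.12 and 3.07 in Sham libraries, with every ligated library above every Sham library. It rose in SNL against Sham (log2 fold change 2.03, SE 0.42, adjusted p = 0.00235) and in SNL plus UNC0638 against Sham (log2 fold change 2.56, SE 0.46, adjusted p = 0.000973). Its span overlaps that of the lysosomal enzyme gene Galc in the RefSeq annotation, which was also higher in SNL than in Sham (log2 fold change 0.49, SE 0.14, adjusted p = 0.0147) and not in SNL plus UNC0638 against Sham (log2 fold change 0.07, SE 0.15, adjusted p = 0.733).

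The receptors for lipids, metabolites and chemoattractants hold 10 measured members. With ligation 5 rose, 1 fell and 4 were not called, beside 24.8% and 23.4% of all tested genes that rose and fell. With UNC0638 against SNL 5 rose, 1 fell and 4 were not called, beside 13.5% and 14.3%. Against Sham 6 of the 10 were higher with UNC0638 and none lower, beside 25.5% and 26.0%. Their median log2 fold changes were 1.15, 1.31 and 1.998 in these comparisons, beside -0.0033, 0.0066 and -0.011 over all tested genes. Of the 10, Gpr17 and Gpr31 would not have passed the filter on low values without the SNL plus UNC0638 libraries. Their rises with UNC0638, and their part in these counts and medians, were thus partly built in.

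Gpr34, a receptor for lysophosphatidylserine that marks microglia and macrophages, had 26.01, 41.8 and 60.6 in SNL plus UNC0638 libraries, 169, 119, 62.3 and 122 in SNL libraries and 25.04, 38.6, 14.02 and 18.4 in Sham libraries. Every SNL library was above every library of the other groups, with SNL replicate 3 lowest of the 4. The gene rose in SNL against Sham (log2 fold change 2.26, SE 0.38, adjusted p = 0.000617) and was lower in SNL plus UNC0638 than in SNL (log2 fold change -1.44, SE 0.41, adjusted p = 0.0229). The second call was lost without SNL plus UNC0638 replicate 1 or 2 or SNL replicate 1, 2 or 4 (adjusted p of 0.0519 to 0.0862), with a log2 fold change of -1.13 without the first of these. Gpr183, the receptor that guides B cells and macrophages along oxysterols, had 81.6, 104 and 137 in SNL plus UNC0638 libraries, 137, 113, 66.8 and 129 in SNL libraries and 33.4, 31.8, 42.1 and 20.8 in Sham libraries. All ligated libraries were above all Sham libraries, and the ligated groups overlapped. Gpr183 rose in SNL against Sham (log2 fold change 1.76, SE 0.28, adjusted p = 0.000454) and in SNL plus UNC0638 against Sham (log2 fold change 1.72, SE 0.30, adjusted p = 0.000842). Between the ligated groups the difference was -0.03 (95% interval -0.69 to 0.62).

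Gpr18, a lymphocyte receptor for which an arachidonic acid amide has been proposed as ligand, had 43.1, 52.6 and 73.5 in SNL plus UNC0638 libraries, 15.99, 19.7, 7.51 and 18.2 in SNL libraries and 5.56, 4.54, 7.79 and 2.31 in Sham libraries. The UNC0638 libraries were highest, and SNL replicate 3 lay inside the Sham range. The gene rose in all comparisons, by 1.44 in SNL against Sham (SE 0.38, adjusted p = 0.00886), 1.85 in SNL plus UNC0638 against SNL (SE 0.41, adjusted p = 0.00788) and 3.30 in SNL plus UNC0638 against Sham (SE 0.41, adjusted p = 0.000167). Leaving out replicate 1 of the UNC0638 group made the second log2 fold change 2.03, adjusted p = 0.0150.

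Gpr171, a lymphoid and brain receptor paired with a proSAAS peptide, had 79.8, 89.7 and 133 in SNL plus UNC0638 libraries, 66.8, 44.6, 18.02 and 53.8 in SNL libraries and 11.1, 11.36, 17.1 and 12.3 in Sham libraries. No libraries of different groups overlapped. The gene rose in SNL against Sham (log2 fold change 1.62, SE 0.36, adjusted p = 0.00334), in SNL plus UNC0638 against SNL (log2 fold change 1.23, SE 0.39, adjusted p = 0.0354) and in SNL plus UNC0638 against Sham (log2 fold change 2.85, SE 0.39, adjusted p = 0.000249). The second call was lost when any 1 of the SNL plus UNC0638 libraries or SNL replicate 2 was left out (adjusted p of 0.0505 to 0.120). Gpr84, a receptor of myeloid cells for medium-chain fatty acids, had 11.7, 46.4 and 49.02 in SNL plus UNC0638 libraries, 15.99, 11.1, 11.3 and 9.12 in SNL libraries and 5.56, 1.14, 4.67 and 3.07 in Sham libraries. Replicates 2 and 3 of the UNC0638 group were above all SNL libraries and replicate 1 was among them. Gpr84 rose in SNL against Sham (log2 fold change 1.58, SE 0.49, adjusted p = 0.0197), a call lost without SNL replicate 1 or Sham replicate 2 (adjusted p = 0.0556 and 0.0576). In SNL plus UNC0638 it was above Sham (log2 fold change 2.87, SE 0.53, adjusted p = 0.00115; log2 fold change 3.52 without replicate 1). SNL plus UNC0638 against SNL was not called with all libraries (log2 fold change 1.30, SE 0.53, adjusted p = 0.0853) and was called without replicate 1 (log2 fold change 1.94, adjusted p = 0.0159).

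Gpr17, a receptor of the P2Y branch known from oligodendrocyte precursors, had 33.2, 40.2 and 52.9 in SNL plus UNC0638 libraries, 7.52, 2.14, 6.01 and 6.38 in SNL libraries and 1.39, 5.68, 1.56 and 3.07 in Sham libraries. The 3 UNC0638 libraries were far above the others, whose values stand for few reads. The gene was higher in SNL plus UNC0638 than in SNL (log2 fold change 2.79, SE 0.47, adjusted p = 0.00211) and than in Sham (log2 fold change 3.56, SE 0.47, adjusted p = 0.000215). It was the only 1 of the 52 to pass the filter on low values through a single group, so that a difference between that group and the others was built into its entry. Gpr31, a receptor for an oxidised arachidonic acid, had 28.7, 23.2 and 30.96 in SNL plus UNC0638 libraries, 7.52, 7.72, 15.8 and 8.21 in SNL libraries and 6.96, 2.27, 6.23 and 5.38 in Sham libraries. The UNC0638 libraries were above the others, and Gpr31 rose against SNL (log2 fold change 1.46, SE 0.39, adjusted p = 0.0177) and against Sham (log2 fold change 2.27, SE 0.39, adjusted p = 0.000764). The first of these calls was lost without SNL plus UNC0638 replicate 3 (adjusted p = 0.0542).

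Gpr35, a receptor for tryptophan metabolites found in gut and in sensory neurons, had 75.3, 91.3 and 72.2 in SNL plus UNC0638 libraries, 21.6, 33.9, 44.3 and 29.2 in SNL libraries and 79.3, 51.1, 46.7 and 83.01 in Sham libraries. All SNL libraries were below all others, and the UNC0638 and Sham libraries overlapped. It fell in SNL against Sham (log2 fold change -0.99, SE 0.26, adjusted p = 0.00841) and was higher in SNL plus UNC0638 than in SNL (log2 fold change 1.32, SE 0.28, adjusted p = 0.00644; without replicate 1, log2 fold change 1.35, adjusted p = 0.0176). SNL plus UNC0638 against Sham gave 0.33 (95% interval -0.29 to 0.94), not called. Neither Gpr81, the lactate receptor, nor Gpr174, a lysophosphatidylserine receptor of lymphocytes, was called in any comparison; Gpr174 had 15.2, 13.9 and 32.2 in SNL plus UNC0638 libraries, 10.3, 5.14, 1.502 and 8.21 in SNL libraries and 19.5, 12.5, 3.12 and 6.92 in Sham libraries, with wide spread in every group.

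Marker sums of immune cells were higher in both ligated groups than in Sham for macrophages and for T and NK cells, while between the ligated groups both sums overlapped. Of 12 tested macrophage markers 11 rose in SNL against Sham, 1 rose in SNL plus UNC0638 against SNL and 12 were higher in SNL plus UNC0638 than in Sham. Sums over the 13 macrophage markers in the table were 5762 to 10075 in SNL plus UNC0638, 6153 to 9333 in SNL and 1557 to 3546 in Sham libraries, with Emr1 at 0 in every library. Of 11 T and NK cell markers, 9 rose in SNL against Sham, 4 rose and 1 fell in SNL plus UNC0638 against SNL, and sums over the 12 in the table were 196 to 553 in SNL plus UNC0638, 222 to 443 in SNL and 46.1 to 65.4 in Sham libraries, with Cd3d, Cd3e, Cd5, Cd8a, Cd8b, Nkg7 and Gzmb each at 0 in 1 to 3 libraries. The neutrophil marker sums were 809 to 1095 in SNL plus UNC0638, 128 to 237 in SNL and 55.3 to 259 in Sham libraries, with 3 of 6 tested markers higher in SNL plus UNC0638 than in SNL and Retnlg at 0 in 8 libraries. The part of cell content in the receptor results was not tested.

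**Figure D3:**
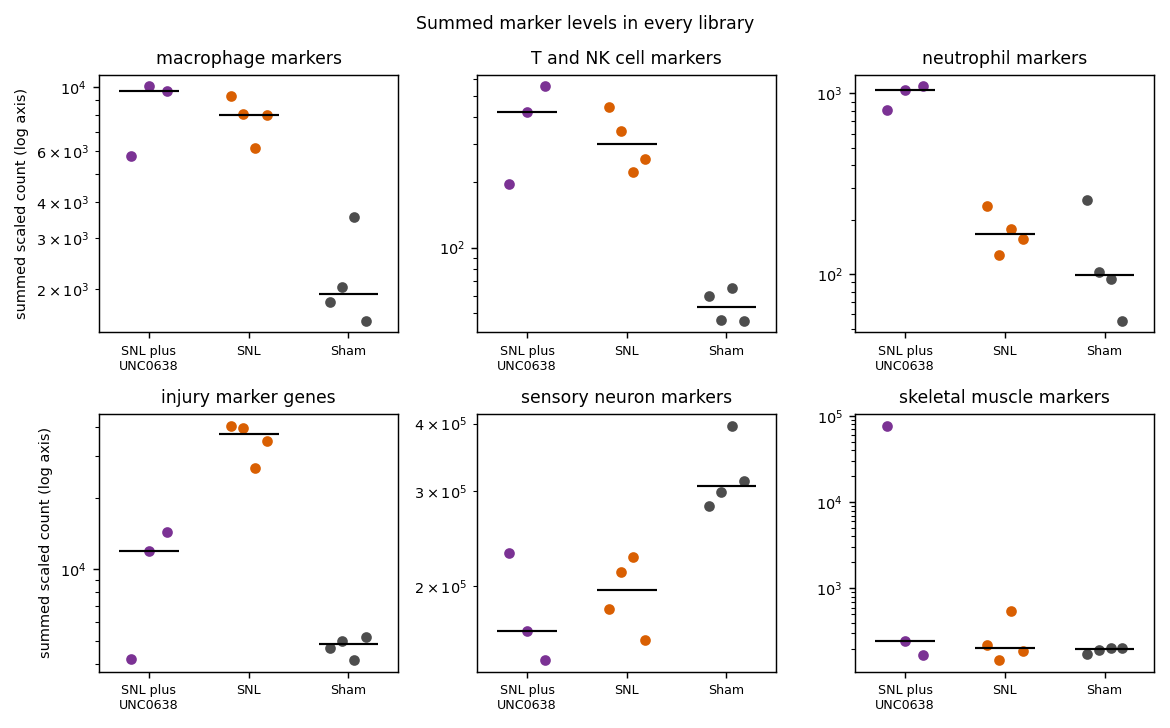
Each panel gives the summed scaled count of a marker list on a log axis, with a point per library and a line at the group median (n = 3 SNL plus UNC0638, 4 SNL, 4 Sham). Macrophage sums of ligated libraries (5762 to 10075) lie above those of Sham libraries (at most 3546), neutrophil sums are highest in SNL plus UNC0638, and 1 SNL plus UNC0638 library holds skeletal muscle markers at 77295.

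The orphan rhodopsin-like receptors, 26 measured members, were split: 5 rose and 8 fell in SNL against Sham, 6 rose and 4 fell in SNL plus UNC0638 against SNL, and 3 were higher and 5 lower in SNL plus UNC0638 than in Sham. All tested genes had 24.8% higher and 23.4% lower, 13.5% and 14.3%, and 25.5% and 26.0% in these comparisons. Median log2 fold changes of the orphans were -0.48, 0.34 and -0.24, beside -0.0033, 0.0066 and -0.011 over all tested genes.

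Gpr22, an orphan of heart and brain, had 225, 169 and 217 in SNL plus UNC0638 libraries, 42.3, 44.6, 129.9 and 80.3 in SNL libraries and 356, 441, 291 and 399 in Sham libraries. The 3 groups did not overlap: SNL was lowest, SNL plus UNC0638 between and Sham highest. Gpr22 fell in SNL against Sham (log2 fold change -2.44, SE 0.31, adjusted p = 0.000161) and was higher in SNL plus UNC0638 than in SNL (log2 fold change 1.58, SE 0.33, adjusted p = 0.00619; without replicate 1, log2 fold change 1.51, adjusted p = 0.0231). It was lower in SNL plus UNC0638 than in Sham (log2 fold change -0.86, SE 0.33, adjusted p = 0.0476), a call lost when any 1 of the SNL plus UNC0638 libraries, SNL replicate 4 or Sham replicate 1, 2 or 4 was left out (adjusted p of 0.0543 to 0.157).

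Gpr149, an orphan described in ovary and brain, had 629, 323 and 319 in SNL plus UNC0638 libraries, 104, 163, 255 and 167 in SNL libraries and 707, 661, 707 and 646 in Sham libraries. SNL was lowest, replicate 1 of SNL plus UNC0638 lay just under the Sham range, and the other two lay between the SNL and Sham ranges. The gene fell in SNL against Sham (log2 fold change -2.04, SE 0.26, adjusted p = 0.000171) and was higher in SNL plus UNC0638 than in SNL (log2 fold change 1.29, SE 0.28, adjusted p = 0.00772). Without replicate 1 the second value was log2 fold change 0.96, adjusted p = 0.0263. Its lower level in SNL plus UNC0638 than in Sham (log2 fold change -0.76, SE 0.28, adjusted p = 0.0418) was not called when any 1 of 8 libraries was left out (all except SNL replicates 1 and 3 and SNL plus UNC0638 replicate 1, adjusted p of 0.0521 to 0.160). Gpr162, an orphan of the brain, had 431, 401 and 255 in SNL plus UNC0638 libraries, 124, 132, 208 and 140.5 in SNL libraries and 481, 327, 520.4 and 470.4 in Sham libraries. All SNL libraries were below all others, and the UNC0638 and Sham libraries overlapped. It fell in SNL against Sham (log2 fold change -1.58, SE 0.22, adjusted p = 0.000211) and was higher in SNL plus UNC0638 than in SNL (log2 fold change 1.25, SE 0.23, adjusted p = 0.00343; without replicate 1, log2 fold change 1.11, adjusted p = 0.0154). SNL plus UNC0638 against Sham gave -0.33 (95% interval -0.83 to 0.18).

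Gpr45, an orphan of the brain, had 15.2, 7.74 and 7.74 in SNL plus UNC0638 libraries, 2.82, 5.14, 6.01 and 1.82 in SNL libraries and 19.5, 11.36, 17.1 and 15.4 in Sham libraries. It fell in SNL against Sham (log2 fold change -1.83, SE 0.38, adjusted p = 0.00219), with no overlap. Without the Sham libraries Gpr45 would not have passed the filter on low values, so that a difference from Sham was partly built in. In SNL plus UNC0638 against SNL, its rise (log2 fold change 1.21, SE 0.41, adjusted p = 0.0458) was lost when any 1 of 9 libraries was left out, all except Sham replicate 3 and SNL replicate 3 (adjusted p of 0.0521 to 0.155). Other orphans that fell in SNL against Sham were Gpr135 (-1.01), Gpr176 (-0.71), a receptor of the circadian clock centre in mouse, Gpr37 (-0.66), a glial receptor for prosaposin, and Gpr61 (-0.58), with adjusted p between 0.00225 and 0.0174. Of these, Gpr176 and Gpr61 were also lower in SNL plus UNC0638 than in Sham (-0.45 and -0.76, adjusted p = 0.0315 and 0.00461); the call of Gpr176 was lost without SNL plus UNC0638 replicate 3 or Sham replicate 1 or 2 (adjusted p of 0.0577 to 0.158).

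The fall of these orphans went with that of neuronal genes: 10 of 14 tested sensory neuron markers fell in SNL against Sham and 1 rose, with a median of -1.58, and 4 rose and 3 fell in SNL plus UNC0638 against SNL. Whether neuron content carries the Gpr values was not tested.

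Gpr101, an orphan of hypothalamus and pituitary whose extra copies cause gigantism in humans, had 0, 4.64 and 16.8 in SNL plus UNC0638 libraries, 17.9, 39.9, 29.3 and 23.7 in SNL libraries and 0, 0, 0 and 0 in Sham libraries. All SNL libraries had reads and all Sham libraries are listed at 0, so that no fold is given. The call in SNL against Sham had an adjusted p of 0.000293. In the UNC0638 group, replicate 1 is listed at 0 and replicate 3 is just under the lowest SNL library. The size of the fold between the ligated groups thus also depends on the 1 added to each value. Without the SNL libraries Gpr101 would not have passed the filter on low values, so that a difference from the other groups was partly built in. Gpr101 was lower in SNL plus UNC0638 than in SNL (log2 fold change -2.57, SE 0.75, adjusted p = 0.0264), a call lost without SNL plus UNC0638 replicate 1 or 2 or SNL replicate 2 or 4 (adjusted p of 0.0507 to 0.0706), with a log2 fold change of -1.46 without replicate 1 and -3.54 without replicate 3. Its call against Sham in that group (adjusted p = 0.0278) was lost without SNL plus UNC0638 replicate 2 or 3 or Sham replicate 1, 2 or 4 (adjusted p of 0.0510 to 0.142).

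Of the 9 injury genes, 9 rose in SNL against Sham and 8 fell in SNL plus UNC0638 against SNL, with sums of 4179, 11976 and 14426 in SNL plus UNC0638 replicates 1, 2 and 3. The part of the injury response in these values was not tested.

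Gpr21, an orphan, had 36.8, 49.5 and 67.1 in SNL plus UNC0638 libraries, 15.05, 6.002, 12.8 and 12.8 in SNL libraries and 8.35, 1.14, 6.23 and 1.54 in Sham libraries. The UNC0638 libraries were above all others, and SNL and Sham overlapped. Gpr21 was higher in SNL plus UNC0638 than in SNL (log2 fold change 2.07, SE 0.54, adjusted p = 0.0159), a call lost without replicate 3 (adjusted p = 0.0567), and than in Sham (log2 fold change 3.53, SE 0.54, adjusted p = 0.000414). Its rise in SNL against Sham (log2 fold change 1.47, SE 0.50, adjusted p = 0.0293) was not called without SNL replicate 1, 3 or 4 or Sham replicate 2 or 4 (adjusted p of 0.0555 to 0.0858). Gpr85, a brain receptor conserved almost letter for letter among mammals, had 108, 101 and 154 in SNL plus UNC0638 libraries, 248, 244, 185 and 256 in SNL libraries and 271, 239, 137 and 239.8 in Sham libraries. It was lower in SNL plus UNC0638 than in SNL (log2 fold change -0.96, SE 0.24, adjusted p = 0.0127), with no overlap, and than in Sham (log2 fold change -0.85, SE 0.24, adjusted p = 0.0106), where Sham replicate 3 lay among the UNC0638 libraries. Both calls were lost without SNL plus UNC0638 replicate 2 (adjusted p = 0.0544 and 0.0516).

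Gpr182, Gpr160 and Gpr19 were the other called orphans. Gpr182, a scavenging chemokine receptor of lymphatic and blood vessels, was higher in SNL plus UNC0638 (58.5 ± 22.8) than in SNL (22.5 ± 3.397) and Sham (17.02 ± 8.97; SD, n = 3, 4 and 4), with log2 fold changes of 1.26 and 1.77 (adjusted p = 0.0335 and 0.00330). The first was lost without SNL plus UNC0638 replicate 2 or 3 or SNL replicate 1, 2 or 4 (adjusted p of 0.0568 to 0.118). Gpr160 was higher in SNL than in Sham (log2 fold change 1.02, SE 0.31, adjusted p = 0.0170), a call lost without SNL replicate 1 or 2 (adjusted p = 0.0562 and 0.0559). Gpr19 was higher in SNL (104, 96.9, 96.9 and 102) than in Sham (73.7, 56.8, 76.4 and 84.5), with log2 fold change 0.47, SE 0.16, adjusted p = 0.0349, and lower in SNL plus UNC0638 (52.02, 64.98 and 68.4) than in SNL (log2 fold change -0.70, SE 0.18, adjusted p = 0.0148). The first of these was lost when any 1 SNL library or Sham replicate 1 or 2 was left out (adjusted p of 0.0549 to 0.0960), and the second without SNL plus UNC0638 replicate 1 (adjusted p = 0.0526).

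Class C receptors are the family of the glutamate and GABA receptors. Gpr158, a neuronal glycine receptor that binds a complex of Rgs7 and Gnb5, had 4549 ± 673, 5745 ± 1589 and 5882 ± 245 in SNL plus UNC0638, SNL and Sham (SD, n = 3, 4 and 4) and was called in no comparison. Rgs7 and Gnb5 themselves, looked up for that link after their values were seen, fell in SNL against Sham (-1.06 and -0.87, adjusted p = 0.000427 and 0.000809).

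Among the 5 other membrane proteins, Gpr180 had 305, 314 and 289 in SNL plus UNC0638 libraries, 237, 233, 275 and 257 in SNL libraries and 466, 466, 411 and 489 in Sham libraries. No libraries of different groups overlapped, SNL being lowest and Sham highest. It fell in SNL against Sham (log2 fold change -0.87, SE 0.10, adjusted p = 0.000125), the smallest p of the 52 genes in that comparison, and in SNL plus UNC0638 against Sham (log2 fold change -0.59, SE 0.11, adjusted p = 0.00117). SNL plus UNC0638 against SNL was not called (0.27, SE 0.11, adjusted p = 0.0810). Gpr155, a lysosomal cholesterol sensor, fell in SNL against Sham (log2 fold change -0.93, SE 0.24, adjusted p = 0.00747). Gpr107, of the Golgi, and Gpr157 were called in SNL plus UNC0638 against Sham (-0.28 and 0.95, adjusted p = 0.0488 and 0.0433). Both calls were lost when any 1 of 8 libraries was left out (adjusted p of 0.0611 to 0.176 and of 0.0538 to 0.121), for Gpr107 all except Sham replicate 2, SNL replicate 4 and SNL plus UNC0638 replicate 1, and for Gpr157 all except Sham replicate 3 and SNL replicates 1 and 3.

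**Figure D4:**
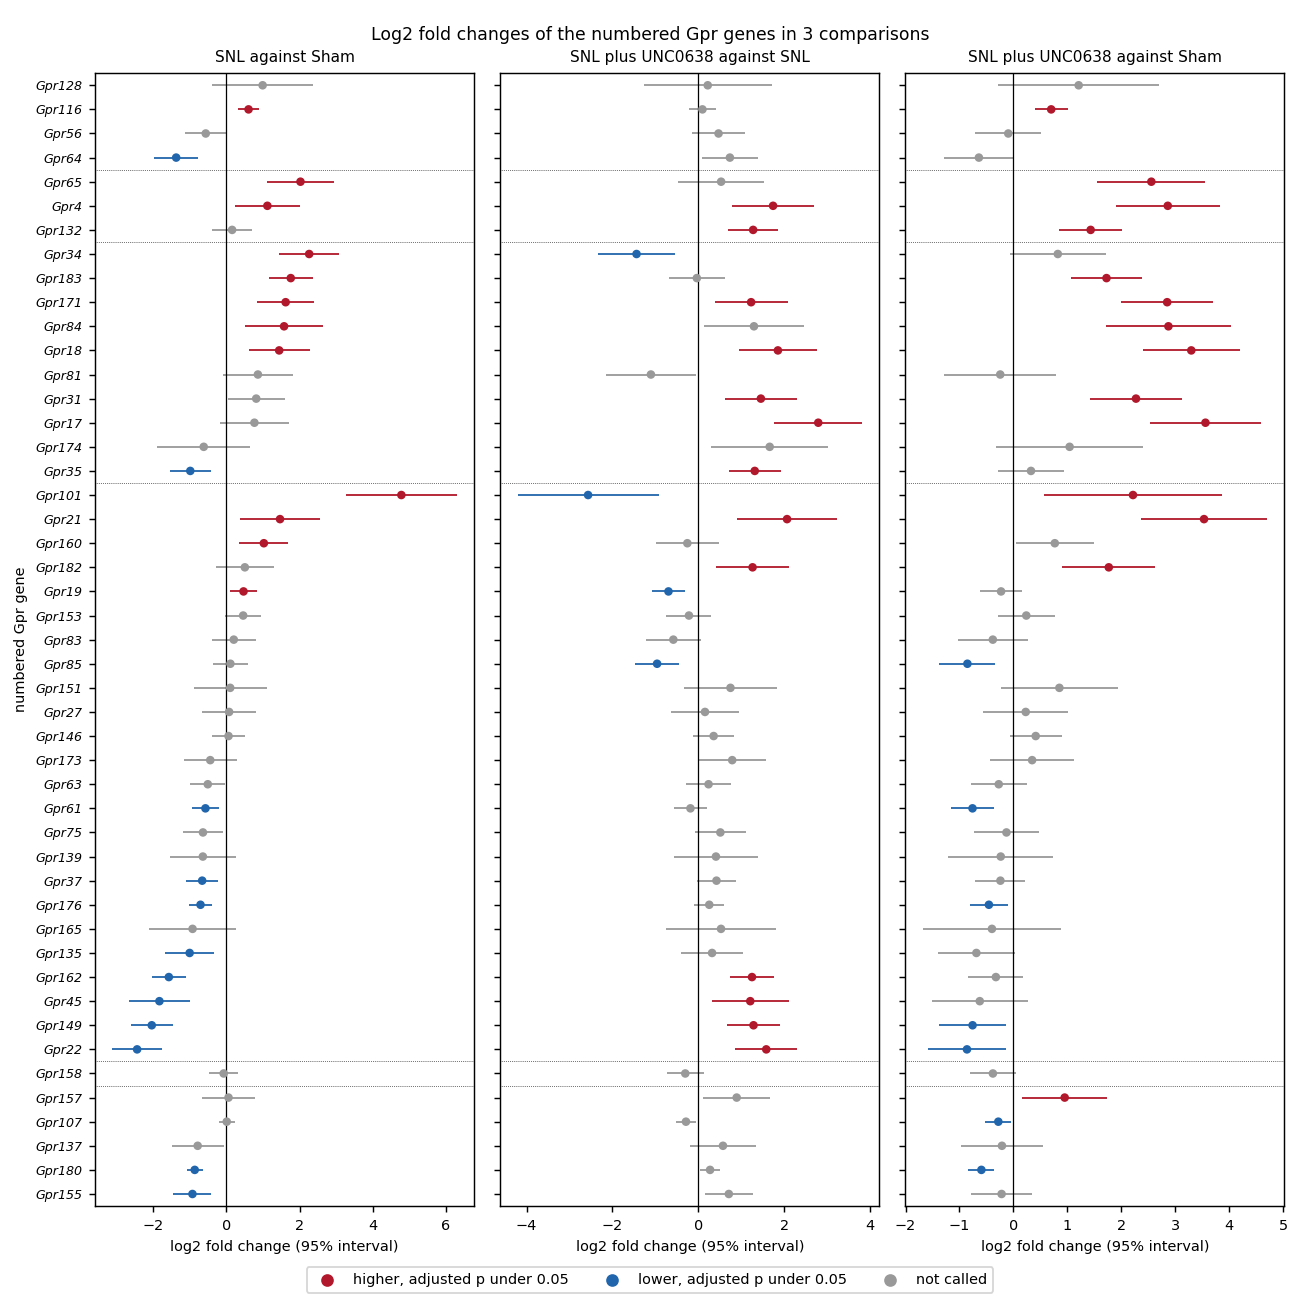
Points are log2 fold changes of 47 numbered Gpr genes on the log2(value + 1) scale with 95% intervals, in a panel per comparison; red and blue mark genes called higher and lower at an adjusted p under 0.05, and dotted lines part the role groups. SNL against Sham has 12 red and 12 blue points, SNL plus UNC0638 against SNL 13 and 4, and SNL plus UNC0638 against Sham 14 and 7. The Gpr101 values depend on the added 1 in every panel, since all Sham libraries and SNL plus UNC0638 replicate 1 are listed at 0.

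The 17 genes called in no comparison include Gpr27, Gpr56, Gpr63, Gpr75, Gpr81, Gpr83, Gpr128, Gpr137, Gpr139, Gpr146, Gpr151, Gpr153, Gpr158, Gpr165, Gpr173 and Gpr174. Some of them were called when libraries were left out. Without Sham replicate 3 and SNL replicate 3 together, Gpr56, Gpr75, Gpr81, Gpr137 and Gpr153 were called in SNL against Sham, Gpr56, Gpr75, Gpr137 and Gpr173 in SNL plus UNC0638 against SNL, and Gpr146 in SNL plus UNC0638 against Sham. Without SNL plus UNC0638 replicate 1, Gpr128 was higher in SNL plus UNC0638 than in Sham (log2 fold change 2.05, adjusted p = 0.0138). Several had wide intervals, and a missed threshold does not show equal levels. Gpr151, an orphan of the habenula singled out here after its values were seen, had 25.1, 10.8 and 33.5 in SNL plus UNC0638 libraries, 18.8, 6.43, 13.5 and 12.8 in SNL libraries and 15.3, 7.95, 6.23 and 19.98 in Sham libraries, with overlap in every comparison and a log2 fold change in SNL against Sham of 0.10 (95% interval -0.90 to 1.10). Gpr56, a collagen receptor that takes part in myelination, had 2047 ± 457, 1523 ± 542 and 2212 ± 591 in SNL plus UNC0638, SNL and Sham libraries (SD, n = 3, 4 and 4).

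Of the 66 symbols, 14 were below the filter. Gpr12, Gpr50, Gpr108 and Gpr141 were at 0 in every library, and the highest value of the other 10 was 13.5. Ranked by their third-highest value, Gpr3 (4.61) lay outside and Gpr174 (15.2) and Gpr45 (15.4) just inside. Without the libraries of their highest group, 7 members would not have passed, among them Gpr17, Gpr31, Gpr45, Gpr101, Gpr128 and Gpr165. Over the other 45, 13 rose and 13 fell in SNL against Sham, 11 and 4 in SNL plus UNC0638 against SNL, and 12 and 7 in SNL plus UNC0638 against Sham. The shares of all tested genes were 24.8% higher and 23.4% lower, 13.5% and 14.3%, and 25.5% and 26.0% in these comparisons.

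In the RefSeq annotation of the later build GRCr8, 10 of the 52 genes (Gpr17, Gpr18, Gpr19, Gpr21, Gpr22, Gpr34, Gpr146, Gpr158, Gpr171 and Gpr183) lie within the span of another gene, where reads of the outer gene could be counted for the inner one; the libraries are stranded, and no source used here says whether counting used strand. Med12l, a Mediator subunit gene that holds Gpr171, had 460.1, 469 and 402 in SNL plus UNC0638 libraries, 115, 145, 208 and 135 in SNL libraries and 256, 211, 385 and 199 in Sham libraries. The Gpr171 libraries of SNL were above Sham while those of Med12l overlapped Sham and were lower in the test (log2 fold change -0.78, SE 0.22, adjusted p = 0.0122). With UNC0638, Med12l was higher than in SNL (log2 fold change 1.58, SE 0.24, adjusted p = 0.00130) and than in Sham (log2 fold change 0.80, SE 0.24, adjusted p = 0.0150), as was Gpr171, so that the 2 genes moved apart in the first comparison and together in the others. Ubac2, which holds Gpr18 and Gpr183, was called in no comparison (log2 fold changes of -0.06, -0.16 and -0.22). Neither were Lims2, which holds Gpr17 (0.00, 0.27 and 0.27), and Rabgap1, which holds Gpr21 (-0.21, 0.14 and -0.07). Cask, which holds Gpr34, fell in SNL against Sham (log2 fold change -0.33, SE 0.12, adjusted p = 0.0440), where Gpr34 rose, and was not called in the others. Cog5, which holds Gpr22, was not among the tested genes.

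**Figure D5:**
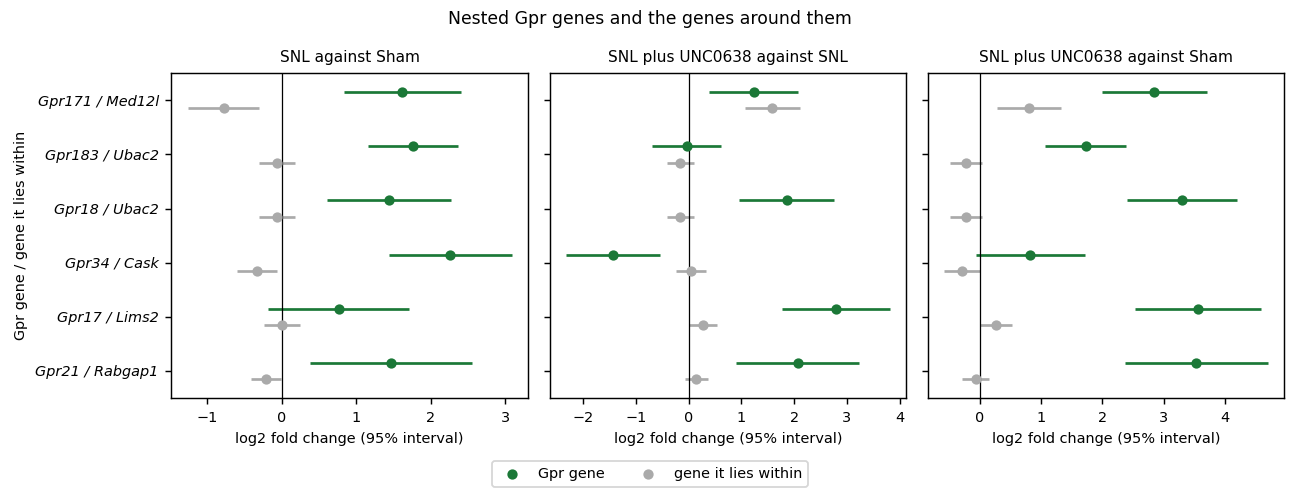
Log2 fold changes with 95% intervals of 6 numbered Gpr genes (green) and of the gene whose span holds each (grey), in a panel per comparison. The grey points of Ubac2, Lims2, Rabgap1 and Cask stay between -0.33 and 0.27, while Med12l is at -0.78 in SNL against Sham and at 1.58 in SNL plus UNC0638 against SNL.

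Promoter sequences were not used to choose the genes. RefSeq tables of build GRCr8 hold 33469 promoters of 300 bases (250 before and 50 after the start), 37 of them of the 52 genes. The median number of CG dinucleotides, the letters in which DNA methylation occurs, was 7 for the 37 and 7 for all promoters, with 1 to 50 among the 37. Promoters of genes that rose in SNL plus UNC0638 against SNL (10 with a sequence) held 1 to 10 CG, with a median of 5.5. Those of genes not called there (25) had a median of 16 and a range of 1 to 50, and the 2 of genes that fell held 5 and 28. In SNL against Sham the medians were 4 for genes that rose (10), 11 for genes that fell (10) and 10 for the others (17). These counts are a description and were not tested. None of the 37 held the AP-1 motif TGANTCA, the CRE motif TGACGTCA or the PU.1 motif GAGGAAGT on either strand, which 7.33%, 1.83% and 2.42% of all promoters held.

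Shown first are the promoters of Gpr22, Gpr35 and Gpr45, which were lowest in SNL, then those of Gpr34 and Gpr101, which were highest there. They run 5′ to 3′ along the gene's strand in build GRCr8, with each CG in capitals, and the counts of CG are 1, 2, 6, 5 and 28.
Gpr22 (chr6:54044936-54045235, minus strand): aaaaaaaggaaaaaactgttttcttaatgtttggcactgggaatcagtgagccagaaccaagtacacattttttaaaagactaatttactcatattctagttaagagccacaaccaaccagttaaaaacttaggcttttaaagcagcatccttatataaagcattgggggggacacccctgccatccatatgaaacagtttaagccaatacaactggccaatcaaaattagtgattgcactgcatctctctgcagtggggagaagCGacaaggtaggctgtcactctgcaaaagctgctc
Gpr35 (chr9:100974330-100974629, plus strand): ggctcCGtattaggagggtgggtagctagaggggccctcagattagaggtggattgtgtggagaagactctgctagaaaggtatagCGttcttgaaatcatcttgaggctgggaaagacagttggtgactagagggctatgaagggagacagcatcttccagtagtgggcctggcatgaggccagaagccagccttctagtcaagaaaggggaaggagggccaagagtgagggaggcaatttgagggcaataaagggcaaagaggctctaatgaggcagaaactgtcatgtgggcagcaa
Gpr45 (chr9:52798100-52798399, plus strand): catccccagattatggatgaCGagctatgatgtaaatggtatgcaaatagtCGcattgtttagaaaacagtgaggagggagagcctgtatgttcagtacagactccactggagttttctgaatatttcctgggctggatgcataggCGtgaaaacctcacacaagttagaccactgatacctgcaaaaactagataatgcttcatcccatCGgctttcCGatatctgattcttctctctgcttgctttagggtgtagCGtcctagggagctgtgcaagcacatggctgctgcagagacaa
Gpr34 (chrX:11785787-11786086, minus strand): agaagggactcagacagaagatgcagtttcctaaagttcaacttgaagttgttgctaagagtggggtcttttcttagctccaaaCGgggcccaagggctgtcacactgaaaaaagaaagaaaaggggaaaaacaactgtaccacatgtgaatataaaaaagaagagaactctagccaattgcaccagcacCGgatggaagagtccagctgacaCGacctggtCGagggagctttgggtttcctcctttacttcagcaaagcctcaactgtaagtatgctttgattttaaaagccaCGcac
Gpr101 (chrX:140579685-140579984, minus strand): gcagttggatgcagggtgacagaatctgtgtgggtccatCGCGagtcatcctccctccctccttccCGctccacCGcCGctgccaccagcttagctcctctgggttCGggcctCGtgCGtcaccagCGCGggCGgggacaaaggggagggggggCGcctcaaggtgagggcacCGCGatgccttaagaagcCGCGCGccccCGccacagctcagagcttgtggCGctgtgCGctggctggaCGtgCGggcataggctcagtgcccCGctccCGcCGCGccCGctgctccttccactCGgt

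Genes that act downstream of receptors changed as well, and give the setting of the Gpr values. Of 13 G protein alpha subunits 3 rose and 7 fell in SNL against Sham, beside 24.8% and 23.4% of all genes, and 2 rose and 1 fell in SNL plus UNC0638 against SNL, beside 13.5% and 14.3%. Their median log2 fold changes were -0.48 and 0.06. Gna14 and Gnal, alpha subunits of the Gq and Gs branches, fell (-1.67 and -1.26, adjusted p = 0.000180 and 0.000470). Of 18 regulators of G protein signalling 5 rose and 7 fell in SNL against Sham, and 8 rose and 2 fell in SNL plus UNC0638 against SNL, with medians of -0.01 and 0.36. Rgs10 averaged 1115 ± 416 in SNL plus UNC0638, 511 ± 32.5 in SNL and 2200.4 ± 417 in Sham libraries (SD, n = 3, 4 and 4), with log2 fold changes of -2.08 in SNL against Sham and 1.06 in SNL plus UNC0638 against SNL (adjusted p = 0.000101 and 0.00686). Rgs8 averaged 53.9 ± 11.6, 6.18 ± 5.58 and 87.8 ± 24.9 in the same order of groups, with log2 fold changes of -3.86 and 3.20 (adjusted p = 0.000121 and 0.00130).

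The shares of all tested genes, for the counts that follow, were 24.8% higher and 23.4% lower in SNL against Sham and 13.5% and 14.3% in SNL plus UNC0638 against SNL. Of 8 adenylate cyclases 4 rose and none fell in SNL against Sham, with Adcy6 at 1.15 and Adcy4 at 1.85 (adjusted p = 0.000315 and 0.000376); Adcy4 rose further in SNL plus UNC0638 against SNL (1.12, adjusted p = 0.0199). Of 6 receptor kinases and arrestins, 3 rose and 2 fell in SNL against Sham and 3 rose in SNL plus UNC0638 against SNL. The 13 beta and gamma subunits had 3 higher and 2 lower in SNL against Sham, and 1 lower in SNL plus UNC0638 against SNL. Of 10 genes for ligands or enzymes that make them, 6 rose and 1 fell in SNL against Sham (median 0.82), and 2 rose and 1 fell in SNL plus UNC0638 against SNL (median -0.05). Cyp7b1 and Hsd3b7, enzymes that act on the oxysterol ligands of Gpr183, rose (1.76 and 1.08, adjusted p = 0.00191 and 0.00200). Psapl1, a relative of the prosaposin that Gpr37 binds, rose in SNL plus UNC0638 against SNL (2.89, adjusted p = 0.000521).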

How the data were processed

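RNA of 11 rat ganglion libraries was measured (3 SNL plus UNC0638, 4 SNL, 4 Sham), grouped by the labels. TopHat2 2.0.9, Cuffdiff 2.1.1 and build rn4 are named per the submitters' processing notes; no source used here names the counted annotation. The deposited values are taken as signal; judged from the values, the authors scaled gene counts with 1 factor per library, since low values were whole multiples of 1 step per library, within 0.01 steps, for 98.5% to 99.3% of them. Since the values are not whole reads, count tests were not used.

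Genes with a value of 10 or more in 3 or more libraries were tested (12085), leaving out Sdc2 and Pcdhgc5 after their values were seen. limma 3.58.1 (R 4.3.3, statmod 1.5.0) was fitted to log2(value + 1) over all libraries with a mean per group and a robust trend; tests were two-sided, and an adjusted p (Benjamini-Hochberg over all tested genes) under 0.05 was called. Fold changes on this scale understate those of low genes. The code was tested on simulated data. Tables and figures used Python 3.11.15, pandas 2.3.3, numpy 2.4.6 and matplotlib 3.10.9. The Gpr genes and the marker and signalling lists were chosen with earlier results of these data known. Named in every library are the 10 called Gpr genes of smallest p per comparison and the called gene of smallest p per role group; from other lists, up to 2 called genes of smallest p per comparison. Some genes are counted but not reported here by name. Others are named with fewer values or as chosen after their values were seen. Alternatives were other scalings, filters and added constants, fits of only the 2 groups at hand, a block for replicate number, each library left out, both replicates 3 left out and, chosen after seeing the data, limma's voom on estimated reads.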

Additional observations from a re-analysis of the deposited data

Results flagged for a closer look

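In 37 groups of 4 libraries of the genes named here, 1 library lay far from the other 3 (by Dixon's ratio) in 3, where chance flags about 1 in 20. SNL replicate 3 was apart for Gpr85, at 185 beside 244 to 256 in the other SNL libraries, and for Gpr31, at 15.8 beside 7.52 to 8.21. Sham replicate 1 was apart for Gpr65, at 5.56 beside 3.07 to 3.41 in the other Sham libraries.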

How the results depend on the processing

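No called Gpr gene changed sign under any alternative, and 21 of 28 calls in SNL against Sham, 9 of 19 in SNL plus UNC0638 against SNL and 15 of 22 in SNL plus UNC0638 against Sham held under all of them. The 22 named genes gave 1279 values with the same call, 75 that lost it and 20 that gained one. With each library left out in turn, SNL against Sham had 9 to 16 higher and 12 to 17 lower Gpr genes. SNL plus UNC0638 against SNL had 10 to 19 higher and 2 to 6 lower. SNL plus UNC0638 against Sham had 13 to 16 higher and 3 to 7 lower. Over all tested genes, the first had 2511 to 3347 higher and 2294 to 3164 lower. The second had 1002 to 2212 higher and 1032 to 2254 lower, and the third 2339 to 3508 and 2332 to 3448. Scaling to the same total gave 3 lower genes in SNL plus UNC0638 against Sham (7 otherwise), and leaving out both replicates 3 gave 24 higher in SNL plus UNC0638 against SNL (14 otherwise); the cause was not tested. Between libraries of the same replicate number, deviations correlated at 0.0045 to 0.431 for SNL and Sham (2 of 4 pairs above 0.1). They correlated at -0.446 to -0.085 for SNL plus UNC0638 and SNL, and at -0.245 to 0.0113 for SNL plus UNC0638 and Sham. SNL replicate 3 and SNL plus UNC0638 replicate 1, of different numbers, were at 0.429. So few pairs cannot decide whether the numbers pair the libraries. With the replicate block, 3 Gpr genes fell in SNL plus UNC0638 against SNL (5 otherwise) and 4 in SNL plus UNC0638 against Sham (7 otherwise). Of all tested genes, 1071 fell in the first (1726 otherwise) and 2681 in the second (3137 otherwise). The planned edgeR and DESeq2 fits were not run, since the values are not whole reads. Depth limits genes near 1 read, worth 0.429 to 1.56.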
